A study of Rattus norvegicus with 12 samples.

Results

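Cxcl12, which encodes the chemokine CXCL12, and the genes of its 2 receptors, Cxcr4 and Ackr3, were followed through 12 RNA sequencing libraries of rat Schwann cells. The 3 genes were picked by symbol out of 30957 genes in the count table. Cxcl12 was picked with its values in these same libraries already known, so its differences between the groups, and those of the receptors, are described here with their errors and without a p-value. The cells were cultured in 4 conditions with 3 libraries each. In the BxTAM co-culture they shared the culture with tumour-associated macrophages (TAMs) induced by supernatant of BxPC-3, a human pancreatic cancer line. In the MiaTAM co-culture the TAMs had been induced by supernatant of MIA PaCa-2, another such line. In the MDM co-culture the partners were monocyte-derived macrophages with no tumour supernatant named. These libraries are titled PBMC, a name for blood mononuclear cells, and labelled untreated like the cells alone, and the co-culture with Schwann cells is given by their source name only. The last condition was the Schwann cells alone, titled Rsc96 and headed HSC96 in the table, which was taken to be RSC96, an immortalised rat Schwann line. The labels name no drug or gene change in any group, do not give the species of the macrophages or how the cultures were kept apart, and say nothing of whether replicate libraries stem from separate cultures. The p-values given below for other genes therefore measure the spread between these libraries, which may be technical.

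CXCL12 is a small secreted protein that binds heparan sulfate on cell surfaces and draws in cells that carry its receptors. CXCR4 passes the signal on through inhibitory G proteins and is then phosphorylated, bound by arrestins and sorted to the lysosome. ACKR3 binds the same chemokine but couples to arrestins in place of G proteins, and it clears CXCL12 from the surroundings. In mice, Schwann cells at the nerve terminal make CXCL12 after injury, and in pancreatic cancer fibroblasts are a known source of it, while tumour cells and many leukocytes carry CXCR4.

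The libraries held from 16555215 to 21506669 counts. The Schwann label had uneven marker support. Of 16 Schwann markers found in the table, 8 were above 1 CPM (counts scaled to library size) in BxTAM co-culture, 9 in MiaTAM, 9 in MDM and 8 in cells alone, among them Pmp22, Ncam1, Erbb3 and Vim. Sox10, the lineage's central transcription factor, had 1 count in BxTAM co-culture and 0 in the other 3 groups, and Mbp, which encodes a myelin protein, was at or near 0. Of 26 macrophage markers, 5 were above 1 CPM in each co-culture group and 4 in cells alone. Their summed level ran from 58.6 to 60.05 CPM in BxTAM, from 64.3 to 67.02 in MiaTAM, from 60.9 to 67.1 in MDM and from 27.03 to 30.2 CPM in cells alone. Most of it came from Itgax, which stood at 37.6, 41.4 and 46.2 CPM in BxTAM, MiaTAM and MDM co-culture and at 17.2 CPM in cells alone. Some other macrophage markers were also higher in the co-cultures, and some were not. Csf1r, the receptor of macrophage colony-stimulating factor, had 418, 502 and 319 counts in BxTAM, MiaTAM and MDM and 187 in cells alone. Lcp1, an actin bundler of leukocytes, had 216, 240 and 205 counts in the co-cultures and 87 in cells alone. The lysosomal gene Cd68 had 63, 101 and 62 counts in the co-cultures and 23 in cells alone. Lyz2 had 2, 4 and 3 counts in the BxTAM libraries, 3, 3 and 2 in MiaTAM and 2, 13 and 8 in MDM. In cells alone it had 7, 7 and 4. Fcer1g and Cybb, with at most 7 counts in a library, were also not higher in every co-culture. The leukocyte genes Ptprc, Adgre1, Tyrobp, C1qa and Cd163, by contrast, had at most 2 counts in any group, and 5 of the 26 markers had none in any library. In bulk RNA such as this, fewer cells of a type and less RNA per cell cannot be told apart.

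The promoters of the 3 genes are printed here because 1 of the genes was abundant as RNA in these cells and the other 2 were close to undetected. Each window runs from 250 bases before to 50 bases after the gene's start in RefSeq, build GRCr8, 5′ to 3′ on the strand of the gene. It is chr4:152060531-152060830 on the plus strand for Cxcl12, chr13:42634239-42634538 on the minus strand for Cxcr4 and chr9:98247104-98247403 on the plus strand for Ackr3. Capitals mark GGGCGG, the GC box bound by Sp1, and TATAAA, the TATA box, on either strand.
Cxcl12: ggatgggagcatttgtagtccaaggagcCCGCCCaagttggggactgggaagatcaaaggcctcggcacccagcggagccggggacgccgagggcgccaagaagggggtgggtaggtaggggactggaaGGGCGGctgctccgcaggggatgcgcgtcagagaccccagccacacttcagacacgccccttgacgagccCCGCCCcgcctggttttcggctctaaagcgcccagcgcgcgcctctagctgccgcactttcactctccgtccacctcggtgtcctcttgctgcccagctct
Cxcr4: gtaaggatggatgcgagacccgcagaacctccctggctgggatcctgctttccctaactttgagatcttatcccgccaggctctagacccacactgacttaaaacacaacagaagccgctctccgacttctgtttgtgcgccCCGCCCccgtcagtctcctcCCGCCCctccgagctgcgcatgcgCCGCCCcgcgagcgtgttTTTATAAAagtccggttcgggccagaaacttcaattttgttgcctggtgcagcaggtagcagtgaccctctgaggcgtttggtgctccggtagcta
Ackr3: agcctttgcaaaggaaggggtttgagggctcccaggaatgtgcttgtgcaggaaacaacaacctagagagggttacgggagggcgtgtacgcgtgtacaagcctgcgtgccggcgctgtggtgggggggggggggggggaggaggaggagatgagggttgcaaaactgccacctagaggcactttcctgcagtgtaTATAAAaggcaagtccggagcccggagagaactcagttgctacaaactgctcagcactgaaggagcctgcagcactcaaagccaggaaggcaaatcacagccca
The Cxcl12 window held 3 GC boxes, at bases 29 to 34, 130 to 135 and 200 to 205, and no TATA box. The Cxcr4 window also held 3 GC boxes, with 2 TATA boxes that overlap on opposite strands at bases 205 to 212. The Ackr3 window held 1 TATA box, at bases 197 to 202, and no GC box. Of 33469 promoter windows of this length, 33.1% held a GC box and 14.2% a TATA box. A further pair of motifs was searched on both strands and not met in any of the 3 windows, namely ACGTG, the core of the hypoxia response element (19.3% of all windows), and CCAAT (37.5%). The Cxcl12 window was 66.7% G and C with 23 CpG pairs, the Cxcr4 window 58.0% with 20 and the Ackr3 window 57.7% with 9, where the median window had 51.7% and 7 pairs. The window with the most CpG pairs thus belonged to the abundant transcript, but that of the nearly undetected Cxcr4 was close to it.

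Cxcl12 was the abundant member. It lies on chromosome 4, 149261044 to 149273891 of Rnor_6.0, and no other gene of the table overlaps it. Its raw counts were 4034, 3924 and 4007 in BxTAM co-culture, 2670, 2331 and 2491 in MiaTAM, 1423, 1322 and 1720 in MDM, and 4111, 4627 and 4390 in cells alone. Scaled for library size with TMM factors, this came to 216, 226 and 220.2 CPM in BxTAM co-culture, to 139, 140.5 and 135 CPM in MiaTAM and to 82.1, 75.1 and 80.3 CPM in MDM, against 234, 236 and 234 CPM in cells alone. The cells alone were highest, BxTAM co-culture stood just under them, MiaTAM in between and MDM lowest, and no 2 groups overlapped. The spread within a group was small beside most of the gaps. Group means were 221 ± 4.65 CPM in BxTAM, 138 ± 2.85 in MiaTAM, 79.1 ± 3.63 in MDM and 234 ± 1.35 CPM in cells alone (SD, n = 3 each), so that the SD was at most 4.59% of the mean.

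**Figure D1:**
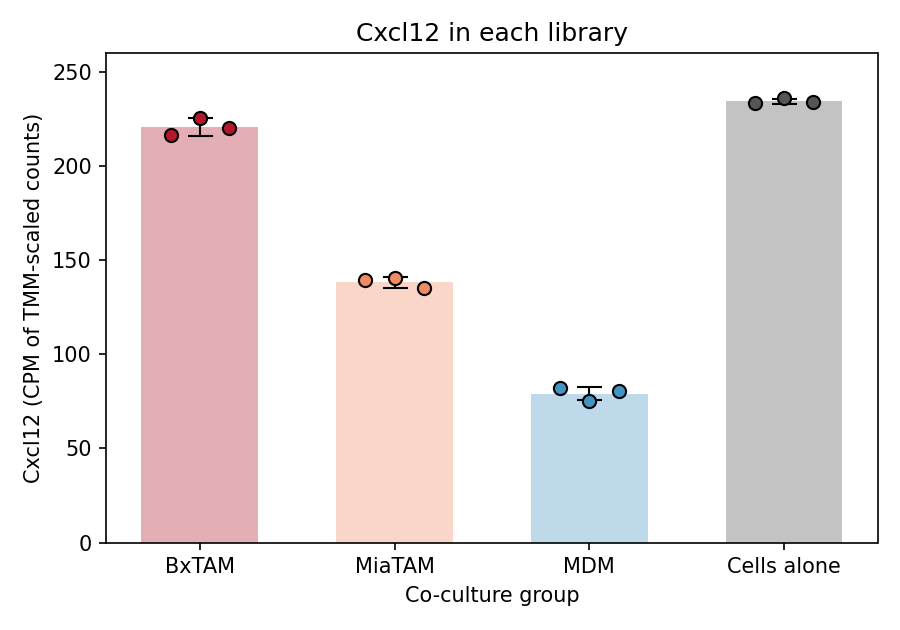
Cxcl12 in CPM of TMM-scaled counts (vertical axis, from 0) in the 4 groups; points are the 3 libraries of a group, bars their mean and error bars the SD. The MDM libraries sit between 75.1 and 82.1 CPM, below all others, and the BxTAM libraries, at 216 to 226 CPM, lie just under the cells alone, at 234 to 236 CPM.

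Set against cells alone, Cxcl12 was lower in each co-culture, by very different amounts. The log2 change was -0.09 ± 0.04 in BxTAM co-culture, -0.76 ± 0.04 in MiaTAM and -1.57 ± 0.04 in MDM (± standard error, 3 libraries against 3). In MDM co-culture the level was thus 2.96-fold lower than in cells alone and in MiaTAM 1.70-fold lower, while in BxTAM it was 5.85% lower. That smallest difference left little room between the groups. The gap of 7.95 CPM between the nearest BxTAM and cells-alone libraries was narrower than the range of 9.23 CPM inside the BxTAM group. The other neighbours in the order of levels, BxTAM with MiaTAM and MiaTAM with MDM, were 76.0 and 53.0 CPM apart at their nearest libraries, several times the widest range inside a group.

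Set against the MDM co-culture, Cxcl12 was higher with both kinds of TAM. The log2 change was 1.48 ± 0.04 in BxTAM co-culture and 0.80 ± 0.04 in MiaTAM, which is 2.79-fold and 1.75-fold. Between the TAMs, the level in MiaTAM co-culture differed from that in BxTAM by -0.68 ± 0.04 on the log2 scale. These comparisons share libraries with each other and with those against cells alone, so they are not separate observations. The summed macrophage markers, mostly Itgax, lay between 58.6 and 67.1 CPM in the co-cultures and were at most 30.2 CPM in cells alone. Single markers differed among the co-cultures, with Csf1r at 7.70, 9.25 and 5.68 CPM and Cd68 at 1.16, 1.87 and 1.10 CPM on average in BxTAM, MiaTAM and MDM. Their part in the differences of Cxcl12 was not tested.

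The receptors were close to undetected. Cxcr4, on chromosome 13, 45314933 to 45318878 of Rnor_6.0, had 0, 2 and 0 counts in the BxTAM libraries, 2, 1 and 1 in MiaTAM, 1, 1 and 1 in MDM and 0, 0 and 0 in cells alone. That is 9 counts in all, spread over 7 of the 12 libraries. Ackr3, on chromosome 9, 97355924 to 97367445, had 0, 0 and 1 counts in BxTAM, 0, 0 and 2 in MiaTAM, and 0 in all 6 libraries of MDM co-culture and of cells alone. All Cxcr4 counts fell in co-cultures, but they are too few to set the groups apart. The ratio of MiaTAM to MDM co-culture was 1.40 for Cxcr4, with a 95% counting interval from 0.237 to 9.55, and that of BxTAM to MDM was 0.699, from 0.0584 to 6.11. For Ackr3 the ratio of MiaTAM to BxTAM was 2.0005, from 0.104 to 118. Where a receptor had no count, a floor of 3 counts over the 3 libraries was used. The 95% counting interval for 0 counts runs up to 3.69, and at that bound the fold limits given below would be smaller. In cells alone the floor of 3 counts is 0.0174 FPKM (a level scaled by gene length and library size) for Cxcr4 and 0.0279 FPKM for Ackr3. In MDM co-culture it is 0.0272 FPKM for Ackr3. These limits and intervals cover counting error alone. Neither receptor passed the filter on low counts, so neither entered a fit.

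Per length of transcript, the ligand was far above its receptors in every group. Cxcl12 averaged 40.7 ± 0.878 FPKM in BxTAM co-culture, 25.5 ± 0.715 in MiaTAM, 14.5 ± 0.795 in MDM and 43.6 ± 0.436 FPKM in cells alone (SD, n = 3 each). In cells alone this was at least 2508-fold the level of Cxcr4 and at least 1562-fold that of Ackr3, taking the floor of 3 counts for the receptor. In MDM co-culture, where the ligand was lowest, it was at least 531-fold the level of Ackr3, and 853-fold that of Cxcr4, with a counting interval from 292 to 4138. In MiaTAM the ratio to Cxcr4 was 1074, from 419 to 3941, and in BxTAM 3429, from 949 to 28318. Cxcl12 ranked between place 2016 and 2113 of all genes by FPKM in the BxTAM libraries and between 5142 and 5438 in the MDM libraries, against 2022 to 2089 in cells alone.

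Other chemokine receptor genes were low as well. Of 22 receptor genes of the family, the 2 members included, 7 had no count in any of the 12 libraries, among them Ccr2 and Cxcr1, and 10 had from 1 to 20 counts in all. Ccrl2, an atypical receptor that binds chemerin without signalling, was the single one with enough counts to be tested, and it stood at 0.471, 0.493 and 0.736 FPKM in BxTAM, MiaTAM and MDM co-culture and at 0.359 FPKM in cells alone. It rose in MDM co-culture against cells alone, by 1.05 ± 0.37 (adjusted p = 0.0184). Its MDM libraries were far apart, at 0.634, 2.44 and 1.40 CPM, and the first of them lies inside the range of the cells alone, 0.568, 0.561 and 1.01 CPM. The call was lost without MDM library 2, where the change was 0.55, without library 1 or 2 of the cells alone (0.93 and 0.91), and with limma on FPKM (0.33). Ackr4, a scavenger of the chemokines CCL19, CCL21 and CCL25, had 12, 20 and 6 counts in BxTAM, MiaTAM and MDM co-culture and 24 in cells alone. Cxcr3, which shares the ligand CXCL11 with ACKR3, had 3, 4 and 1 counts in the co-cultures and 12 in cells alone. The low receptors did not share a direction. Ccr7 had 5, 13 and 6 counts in BxTAM, MiaTAM and MDM and 2 in cells alone. Ccr1 had 8, 15 and 5, against 13, and Cxcr5 had 14, 25 and 18, against 26.

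**Figure D2:**
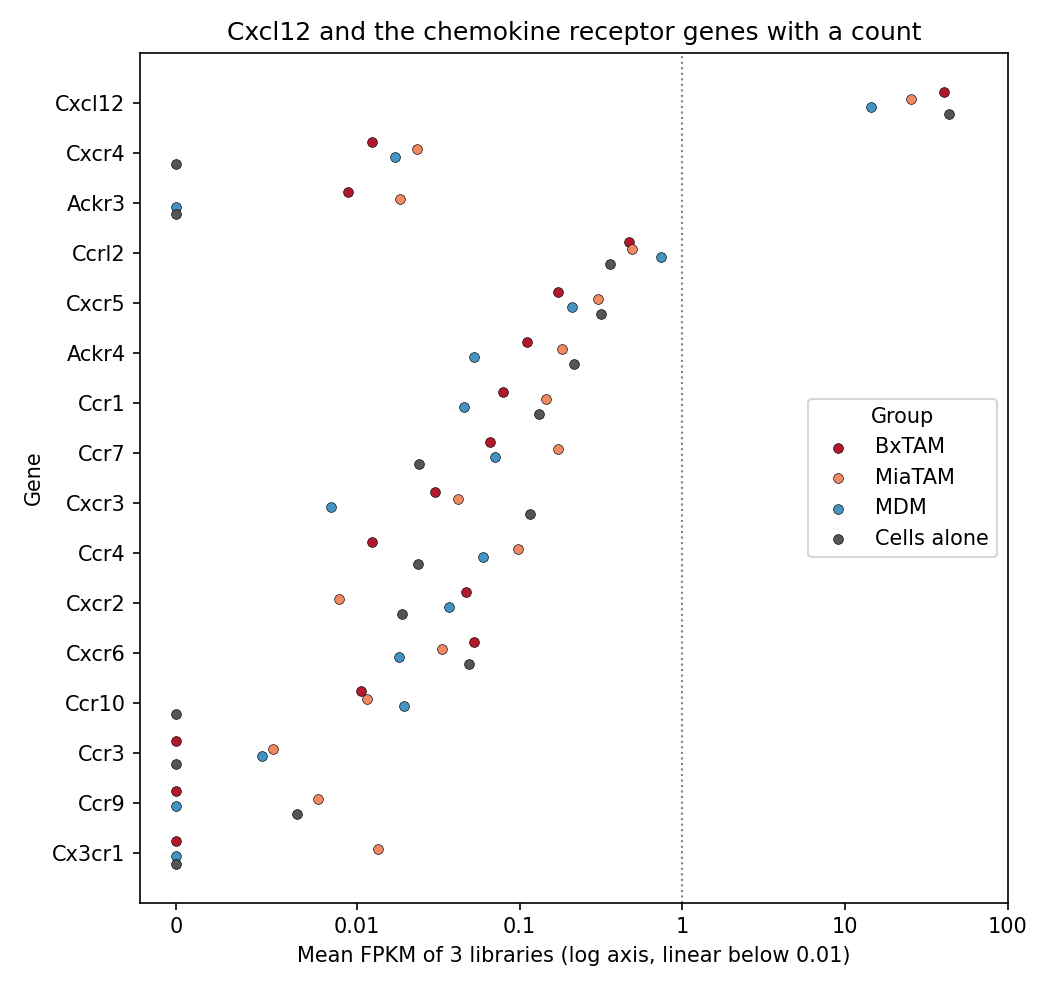
Mean FPKM of 3 libraries (horizontal log axis, linear below 0.01) for Cxcl12 and the 15 chemokine receptor genes with a count in any library, 1 point per group; the dotted line is 1 FPKM. Cxcl12 lies at 14.5 to 43.6 FPKM in the 4 groups, while the receptor genes all stay under 1 FPKM and Cxcr4 and Ackr3 under 0.03.

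The wider axis was read from 8 lists with 163 genes, written with earlier results of these libraries known. Changes given below with ± are log2 fold changes with their standard error, from 3 libraries against 3. Of these genes, 156 were found in the table and 106 had enough counts to be tested. In BxTAM against MDM co-culture 24 of the 106 rose and 22 fell, 43.4% of them, where 34.7% of all 12360 tested genes were called (17.4% higher and 17.3% lower). In MiaTAM against MDM 34 rose and 26 fell, 56.6%, against 41.0% of all genes (19.8% higher and 21.1% lower). Against cells alone, 46 rose and 23 fell in BxTAM (65.1%, all genes 60.9%, of which 30.0% higher and 30.9% lower), 53 rose and 25 fell in MiaTAM (73.6%, all genes 65.1%, 31.4% higher and 33.7% lower), and 48 rose and 28 fell in MDM (71.7%, all genes 65.1%, 32.0% higher and 33.1% lower). The median log2 change of the 106 was 0.10, 0.14 and 0.11 in BxTAM, MiaTAM and MDM against cells alone, -0.0011 and 0.04 in BxTAM and MiaTAM against MDM, and 0.02 in MiaTAM against BxTAM. The median over all tested genes was within 0.00894 of 0 in each comparison. In MiaTAM against BxTAM 16 rose and 13 fell, 27.4%, against 24.2% of all genes (11.0% higher and 13.3% lower). The 2997 genes called there in all became 1978 without BxTAM library 2, 1976 without BxTAM library 3 and 1933 without MiaTAM library 2. The share called was higher in the lists than over all tested genes in each of the 6 comparisons. The margin ran from 27.4% against 24.2% in MiaTAM against BxTAM to 56.6% against 41.0% in MiaTAM against MDM, and was not tested. These comparisons share libraries, so they are not separate observations. Rises outnumbered falls in each, but only by 24 to 22 in BxTAM against MDM, where the median was -0.0011.

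**Figure D3:**
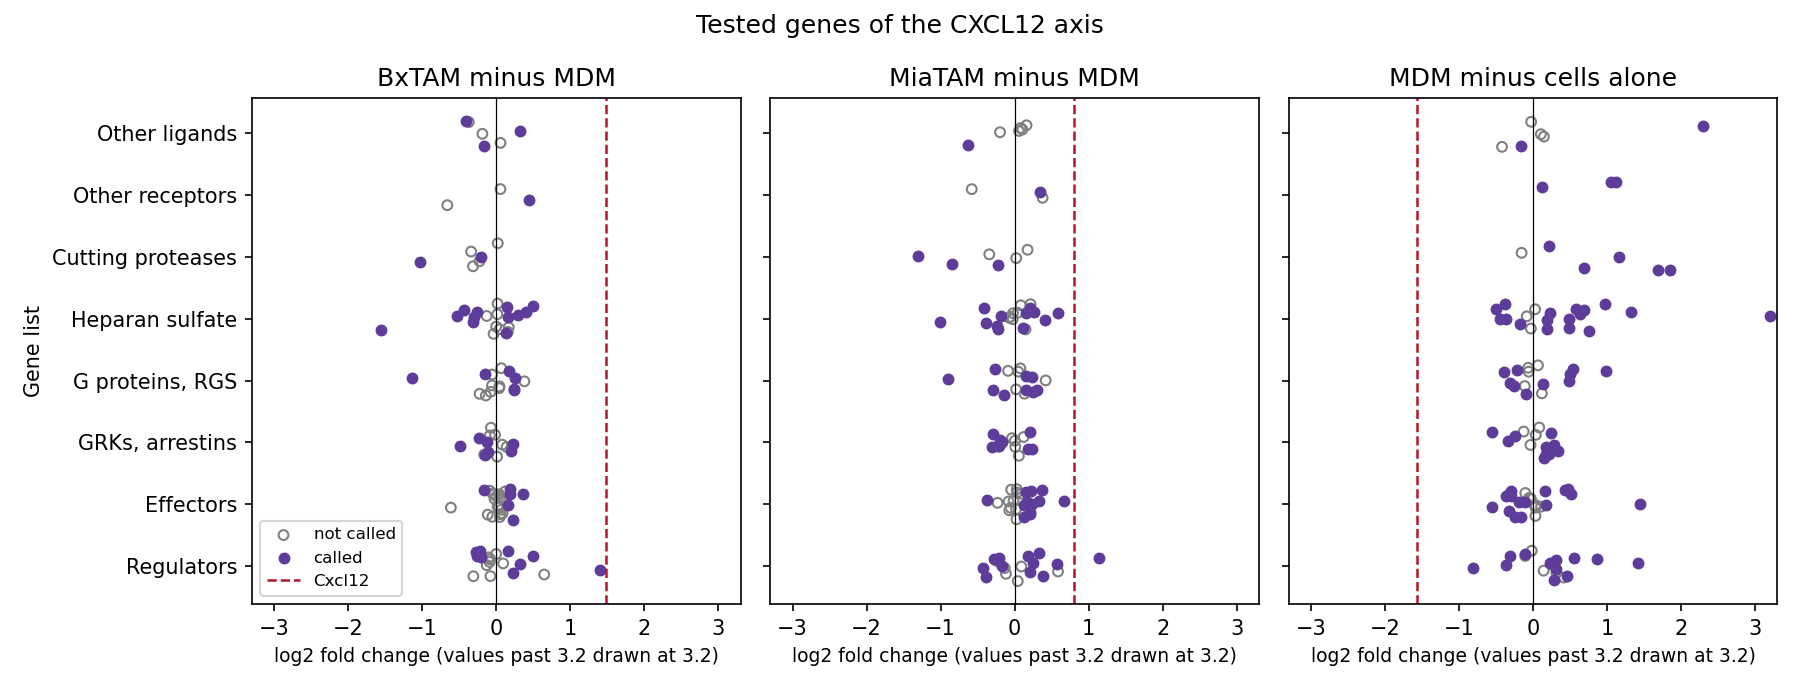
Log2 fold change (horizontal axis) of 106 tested genes of the CXCL12 axis in 8 lists (rows), for BxTAM and MiaTAM against MDM co-culture and MDM against cells alone; filled points passed an adjusted p of 0.05 and the dashed line marks Cxcl12. In BxTAM against MDM, Cxcl12 lies at 1.48, to the right of the listed genes, with Csf3 nearest at 1.40, and in MDM against cells alone it lies at -1.57, to the left of them.

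Among other ligands of the receptors, few were measured well. Mif, which encodes a cytokine that also binds CXCR4 and ACKR3, is listed at 0 counts in all 12 libraries. As Mif is active in most cells and has close copies in the genome, nothing is read from that 0. Cxcl11, the other chemokine that binds ACKR3, had few counts. It stood at 0.537, 0.403 and 0.330 CPM in BxTAM, at 0.574, 0.241 and 0.596 CPM in MiaTAM and at 0.577, 0.568 and 0.513 CPM in MDM, against 0.114, 0.102 and 0.107 CPM in cells alone. It rose in all 3 co-cultures against cells alone, by 1.92 ± 0.53, 2.09 ± 0.52 and 2.29 ± 0.50 (adjusted p = 0.00385, 0.00138 and 4.3e-04), and every co-culture library was above every library of cells alone. Adm encodes adrenomedullin, a vessel-widening peptide that ACKR3 clears. It was at 47.3, 42.9 and 43.4 CPM in BxTAM and 37.7, 38.5 and 37.7 CPM in MiaTAM, against 55.8, 62.6 and 58.5 CPM in MDM. It fell against MDM in both, with log2 changes of -0.41 ± 0.06 (adjusted p = 1.2e-05) and -0.64 ± 0.06 (adjusted p = 3.2e-08), opposite in sign to Cxcl12. In cells alone Adm averaged 60.1 CPM. Like Cxcl12, it was thus lower in both TAM groups than in cells alone, and lower in MiaTAM than in BxTAM. Penk encodes enkephalin precursors, opioid peptides that ACKR3 also binds, and it rose by 0.27 ± 0.05 in MiaTAM against BxTAM (adjusted p = 9.98e-04). Within the chemokine ligands themselves, Cxcl12 stood at place 3 by FPKM in BxTAM, MiaTAM and cells alone, behind Cxcl1 and Ccl2, and at place 5 in MDM co-culture, behind Cxcl10 and Cxcl16 as well.

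The co-receptors of MIF differed in level. Cd44, a hyaluronan receptor that also takes part in MIF and CXCR4 signalling, was abundant, at 2674, 2982 and 2860 CPM in BxTAM and 2626, 2526 and 2828 CPM in MiaTAM, against 1983, 2171 and 2132 CPM in MDM. Both TAM groups lay above every MDM library, by 0.44 ± 0.05 (adjusted p = 1.3e-06) and 0.34 ± 0.05 (adjusted p = 2.0e-05). Against cells alone it rose in all 3 co-cultures, by 0.56 ± 0.05, 0.47 ± 0.05 and 0.12 ± 0.05 in BxTAM, MiaTAM and MDM (adjusted p = 7.8e-09, 1.0e-07 and 0.0396). The small rise in MDM was lost with limma on FPKM (0.099) and without any 1 of MDM libraries 2 and 3, libraries 1 and 2 of the cells alone, and BxTAM library 3 (0.099 to 0.13). Cd74, the MIF receptor and invariant chain of antigen presentation, averaged 2.20, 2.77 and 2.10 CPM in BxTAM, MiaTAM and MDM co-culture and 0.963 CPM in cells alone. It rose against cells alone by 1.18 ± 0.29, 1.50 ± 0.28 and 1.12 ± 0.29 (adjusted p = 0.00161, 9.2e-05 and 0.00218). Leukocytes express Cd74 strongly, and the summed macrophage markers moved the same way; their part in the rise was not tested.

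Of 6 tested genes for proteases known to cut CXCL12, 4 rose in BxTAM, 4 rose and 1 fell in MiaTAM, and 5 rose in MDM against cells alone, which is 66.7%, 83.3% and 83.3% called, where 60.9%, 65.1% and 65.1% of all tested genes were. Mmp13, a collagenase, was at 568, 503 and 535 CPM in MDM co-culture, against 141, 139.8 and 165 CPM in cells alone, and rose by 1.85 ± 0.07 (adjusted p = 7.2e-15). It was lower with TAMs, at 259.7, 273 and 253 CPM in BxTAM and 237.5, 191.5 and 217 CPM in MiaTAM. Against MDM this was a fall, with log2 changes of -1.03 ± 0.07 in BxTAM (adjusted p = 2.4e-10) and -1.31 ± 0.07 in MiaTAM (adjusted p = 8.3e-12). The MDM group was thus highest for Mmp13 and lowest for Cxcl12. Between the TAM groups, however, Mmp13 differed in the same direction as Cxcl12. It fell in MiaTAM against BxTAM, with a log2 change of -0.28 ± 0.07 (adjusted p = 0.00536). That call was lost with limma on FPKM without a filter (-0.28). A link between the RNA levels of Mmp13 and Cxcl12 was not tested. Cpm, a carboxypeptidase of the cell membrane known to trim the end of CXCL12, rose by 1.17 ± 0.07 in MDM against cells alone (adjusted p = 3.7e-12), with 67.8, 61.7 and 62.3 CPM in MDM and 31.03, 27.2 and 27.3 CPM in cells alone. It stayed high with TAMs, at 55.5 and 54.7 CPM on average in BxTAM and MiaTAM. Mmp9, a gelatinase, rose by 1.46 ± 0.20, 1.86 ± 0.19 and 1.68 ± 0.19 in BxTAM, MiaTAM and MDM against cells alone (adjusted p = 2.4e-06, 3.6e-08 and 1.8e-07) at no more than 7.17 CPM in any library. Mmp14, which activates other matrix proteases at the membrane, rose by 0.23 ± 0.05, 0.23 ± 0.05 and 0.21 ± 0.05 in the same order (adjusted p = 2.3e-04, 2.1e-04 and 5.2e-04). Ctsk, a lysosomal collagenase, fell by 1.01 ± 0.29 in MiaTAM against cells alone, with means of 1.16 and 2.38 CPM (adjusted p = 0.00510). Dpp4, the peptidase best known for inactivating CXCL12, had 10, 12 and 5 counts in BxTAM, MiaTAM and MDM co-culture and 9 in cells alone, and Mmp2 had 2, 3 and 3 counts, against 1; neither could be tested.

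Heparan sulfate genes, whose products hold CXCL12 at the cell surface, rose more than they fell against cells alone. Of 20 tested genes 13 rose and 3 fell in BxTAM, 14 rose and 4 fell in MiaTAM, and 12 rose and 5 fell in MDM co-culture, with medians of 0.29, 0.30 and 0.21 on the log2 scale. Over all tested genes 30.0% rose and 30.9% fell in BxTAM, 31.4% and 33.7% in MiaTAM, and 32.0% and 33.1% in MDM. Those medians were the same with Sulf2 at its bound. Sulf2, a sulfatase that trims heparan sulfate outside the cell, had 44, 65 and 136 counts in BxTAM, MiaTAM and MDM and 0 in cells alone, at least 15.1-fold, 22.4-fold and 45.02-fold higher when cells alone are set to the floor of 3 counts (adjusted p = 2.0e-05, 1.9e-06 and 2.7e-08). It fell against MDM in BxTAM (-1.56 ± 0.31, adjusted p = 7.7e-04) and in MiaTAM (-1.005 ± 0.29, adjusted p = 0.00942, the call against MDM being lost without MiaTAM library 3, at -0.85), so among the co-cultures it too was highest where Cxcl12 was lowest. Its relative Sulf1 rose by 0.49 ± 0.05 in BxTAM against MDM, with 112 and 79.7 CPM on average (adjusted p = 6.4e-08). In MiaTAM, at 84.3 CPM, the change of 0.08 ± 0.05 against MDM did not pass (adjusted p = 0.173). Sulf1 averaged 113 CPM in cells alone, close to BxTAM and above MiaTAM and MDM. Gpc1, a glypican core protein, rose by 1.53 ± 0.13 in MiaTAM and 1.32 ± 0.13 in MDM against cells alone, where it averaged 4.01 CPM (adjusted p = 2.1e-09 and 2.5e-08). Its mean in BxTAM, 7.39 CPM, was also above that of cells alone. Sdc1, the core protein syndecan 1, set the TAM groups apart, with 683, 739 and 753 CPM in MiaTAM, against 538, 539.6 and 515 CPM in BxTAM. The rise was 0.45 ± 0.04 (adjusted p = 5.6e-07).

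Genes for the G proteins, kinases and arrestins that meet the receptors were expressed, with mostly small changes. None of the 15 tested G protein and RGS genes, and none of the 14 for receptor kinases, arrestins and sorting, was called at 2-fold or more in any comparison, apart from Rgs16. Rgs16, which switches off inhibitory G proteins, fell by 1.13 ± 0.16 in BxTAM against MDM (adjusted p = 1.8e-05), with 2.52, 3.28 and 3.08 CPM in BxTAM and 5.83, 6.65 and 6.91 CPM in MDM. Gng2, a G protein gamma subunit, rose in all 3 co-cultures against cells alone, by 0.66 ± 0.04, 0.64 ± 0.04 and 0.48 ± 0.04 in BxTAM, MiaTAM and MDM (adjusted p = 7.5e-11, 9.3e-11 and 7.5e-09). Gna13, a G protein alpha subunit, fell by 0.30 ± 0.04 in MiaTAM against MDM (adjusted p = 1.8e-05), and Gnai3, one of the inhibitory alpha subunits, fell by 0.19 ± 0.04 in MiaTAM against BxTAM (adjusted p = 0.00273).

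Both arrestin genes that receive CXCR4 and ACKR3 were expressed. Arrb1 was at 130.2, 130.4 and 129 CPM in BxTAM, 127.5, 138 and 133 CPM in MiaTAM and 113.5, 114 and 111 CPM in MDM, against 142, 147 and 141 CPM in cells alone. As with Cxcl12, the cells alone were highest and MDM lowest, but the TAM groups overlapped, with MiaTAM above BxTAM on average. It fell against cells alone, with log2 changes of -0.14 ± 0.04, -0.11 ± 0.04 and -0.35 ± 0.04 in BxTAM, MiaTAM and MDM (adjusted p = 0.00325, 0.0152 and 1.3e-07). The call in MiaTAM was lost without MiaTAM library 1 (-0.083), without library 1 or 2 of the cells alone (-0.11 and -0.079), and with the MiaTAM libraries and cells alone fitted by themselves (-0.096). Arrb1 rose against MDM by 0.20 ± 0.04 in BxTAM (adjusted p = 4.0e-04) and 0.23 ± 0.04 in MiaTAM (adjusted p = 7.0e-05). Arrb2 averaged 46.5, 53.3 and 47.002 CPM in the co-cultures and 40.5 CPM in cells alone, and rose against cells alone in each (0.20 ± 0.06, 0.40 ± 0.06 and 0.22 ± 0.06, adjusted p = 0.00488, 4.4e-06 and 0.00245). Grk2, a kinase that phosphorylates active CXCR4 and is listed as Adrbk1 in the table, rose by 0.17 ± 0.05, 0.29 ± 0.05 and 0.24 ± 0.05 (adjusted p = 0.00809, 3.6e-05 and 3.6e-04). Grk6, another kinase of CXCR4, fell by 0.48 ± 0.05 in BxTAM against MDM (adjusted p = 1.2e-07) and rose by 0.26 ± 0.05 in MiaTAM against BxTAM (adjusted p = 7.4e-04). Usp14, a deubiquitinase that acts on CXCR4, fell in all 3 co-cultures against cells alone, with log2 changes of -0.54 ± 0.05, -0.55 ± 0.05 and -0.55 ± 0.05 (adjusted p = 7.3e-09, 5.0e-09 and 4.3e-09).

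Among the effector kinases, subunits of PI3-kinase and JAK2 were named by the rule. Pik3cb, a catalytic subunit, fell by 0.67 ± 0.06 in BxTAM against cells alone, with means of 40.2 and 63.9 CPM (adjusted p = 1.9e-09). Its means in MiaTAM and MDM, 41.1 and 43.5 CPM, were also below cells alone. Pik3ca, another catalytic subunit, fell by 0.38 ± 0.04 in MiaTAM against MDM (adjusted p = 2.8e-07) and fell by 0.22 ± 0.04 in MiaTAM against BxTAM (adjusted p = 7.4e-04). It averaged 146, 126 and 164 CPM in BxTAM, MiaTAM and MDM and 114 CPM in cells alone. Jak2, the kinase of many cytokine receptors, rose by 0.36 ± 0.06 in BxTAM against MDM (adjusted p = 4.5e-05). Pik3r5, a regulatory subunit used by chemokine receptors, was under 1 CPM on average and rose by 1.21 ± 0.45 in MiaTAM and 1.44 ± 0.43 in MDM against cells alone (adjusted p = 0.0225 and 0.00585). These calls did not pass with limma on log2(FPKM + 1) (0.13 and 0.15), the first also not without MiaTAM library 2 or 3 or library 1 of the cells alone (1.12, 1.14 and 1.02), and the second not without MDM library 3 (0.81). Relative to cells alone, these 4 genes differed in direction. Mean levels were lower in every co-culture for Pik3cb and higher in every co-culture for Pik3ca.

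Of the factors known to act on Cxcl12 or Cxcr4 transcription, Csf3 had the largest log2 change among the 18 tested in both TAM groups against MDM. Csf3 encodes the granulocyte colony-stimulating factor, which lowers Cxcl12 in mouse bone marrow. It stood at 132, 126.5 and 119.7 CPM in BxTAM and 114, 107 and 93.7 CPM in MiaTAM, against 49.0, 42.8 and 51.3 CPM in MDM. It rose against MDM by 1.40 ± 0.07 and 1.14 ± 0.07 (adjusted p = 3.5e-12 and 7.8e-11), and fell in MDM against cells alone with a log2 change of -0.82 ± 0.07 (adjusted p = 1.8e-09), where the libraries held 82.1, 83.9 and 86.8 CPM. In these cultures Csf3 and Cxcl12 were thus lowest in the same group. Unlike Cxcl12, Csf3 rose in BxTAM and MiaTAM against cells alone, by 0.58 ± 0.06 and 0.32 ± 0.06 (adjusted p = 1.3e-07 and 2.3e-04), and fell by 0.26 ± 0.06 in MiaTAM against BxTAM (adjusted p = 0.00532; the call was lost with limma on FPKM without a filter, at -0.26).

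The hypoxia factors went different ways. Hif1a, which activates both Cxcl12 and Cxcr4 under low oxygen, averaged 485, 467 and 414 CPM in BxTAM, MiaTAM and MDM co-culture and 446 CPM in cells alone. It rose against MDM by 0.23 ± 0.04 in BxTAM (adjusted p = 2.3e-04) and 0.17 ± 0.04 in MiaTAM (adjusted p = 0.00202). Against cells alone it rose by 0.12 ± 0.04 in BxTAM (adjusted p = 0.0154) and fell by 0.11 ± 0.04 in MDM (adjusted p = 0.0304), and in MiaTAM the change of 0.07 ± 0.04 did not pass (adjusted p = 0.153). The call in BxTAM was lost without BxTAM library 3 (0.098), that in MDM without any 1 MDM library or library 1 or 3 of the cells alone (-0.11 to -0.089), and MiaTAM passed without MiaTAM library 2 (0.11). Epas1, which encodes HIF-2 alpha, rose against cells alone in all 3 co-cultures, by 1.15 ± 0.11, 1.18 ± 0.11 and 1.41 ± 0.11 (adjusted p = 2.3e-08, 1.2e-08 and 5.0e-10), at no more than 9.76 CPM in any library. Il1a, an alarmin cytokine under 1 CPM on average, rose by 1.06 ± 0.35 in BxTAM and 1.001 ± 0.35 in MiaTAM against cells alone (adjusted p = 0.0118 and 0.0166), calls lost without BxTAM library 1 (0.93), and without MiaTAM library 3 (0.76) or by DESeq2 (1.02). Tgfb1, which represses Cxcl12 in fibroblasts and marrow stroma, rose by 0.38 ± 0.05 in MiaTAM against BxTAM (adjusted p = 3.4e-05). Its libraries stood at 124.5, 141.5 and 126 CPM in MiaTAM and 102, 96.2 and 103 CPM in BxTAM. Cxcl12 differed in the opposite direction between these groups. In MDM, the group with the least Cxcl12, Tgfb1 stood at 105.1, 110.6 and 113.2 CPM, under every MiaTAM library. A link between these genes was not tested. The transcription factor gene Relb, of the NF-kappaB family, rose by 0.49 ± 0.09 in BxTAM and 0.57 ± 0.09 in MiaTAM against MDM, with means of 17.5, 18.5 and 12.4 CPM in BxTAM, MiaTAM and MDM (adjusted p = 2.3e-04 and 3.5e-05).

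Last, Cxcl12 was compared with other genes by the Pearson correlation of log2 CPM over the 12 libraries. These were the tested genes with a mean of 5 CPM or more and a standard gene symbol. Placeholder symbols, such as those that begin with LOC, RGD or AABR, and all symbols that begin with Rn, were left out. The correlation is a description of likeness between group levels, since the libraries fall into 4 groups, and no p is given. The gene most like Cxcl12 of 9143 was Parp14, an ADP-ribosyltransferase induced by interferon (r = 0.990). It stood at 108, 117 and 102 CPM in BxTAM, 84.6, 83.7 and 87.5 CPM in MiaTAM and 58.6, 56.8 and 58.4 CPM in MDM, against 122, 121 and 116 CPM in cells alone. Its groups followed the same order as those of Cxcl12, except that BxTAM library 2, at 117 CPM, overlaps the cells alone. Mnda, of the interferon-inducible p200 family whose members share sequence, was next (r = 0.982), with means of 56.7 ± 2.76, 38.1 ± 2.53 and 24.3 ± 1.29 CPM in BxTAM, MiaTAM and MDM and 69.9 ± 5.003 CPM in cells alone (SD, n = 3 each).

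The other 6 varied less than Cxcl12 did. They were Pid1, an adaptor that dampens insulin signalling (r = 0.980), the antiviral zinc finger gene Zc3hav1 (0.974), Enah, which lengthens actin filaments (0.974), the zinc finger gene Bnc2 (0.972), Eci3, an isomerase of fatty acid breakdown (0.972), and Kirrel, an adhesion protein (0.969). Kirrel, for one, averaged 379, 352 and 295 CPM in BxTAM, MiaTAM and MDM and 377 CPM in cells alone. The 4 genes least like Cxcl12 were highest in MDM co-culture. Rara, the retinoic acid receptor alpha (r = -0.980), averaged 102, 116 and 133 CPM in BxTAM, MiaTAM and MDM and 100.4 CPM in cells alone. Fbln1, a matrix protein (-0.969), averaged 44.0, 50.7 and 76.9 CPM in BxTAM, MiaTAM and MDM and 38.6 CPM in cells alone. Mrpl45, of the mitochondrial ribosome (-0.974), and Mras, a small GTPase (-0.972), made up the rest. Among the 9143 genes compared, 106 had an r over 0.9 and 79 one under -0.9. With Spearman's rank correlation in place of Pearson's, 0 of the 12 genes named were chosen again. Those 12 still had rank correlations with Cxcl12 from 0.776 to 0.958 for the 8 most alike and from -0.937 to -0.811 for the 4 least alike.

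**Figure D4:**
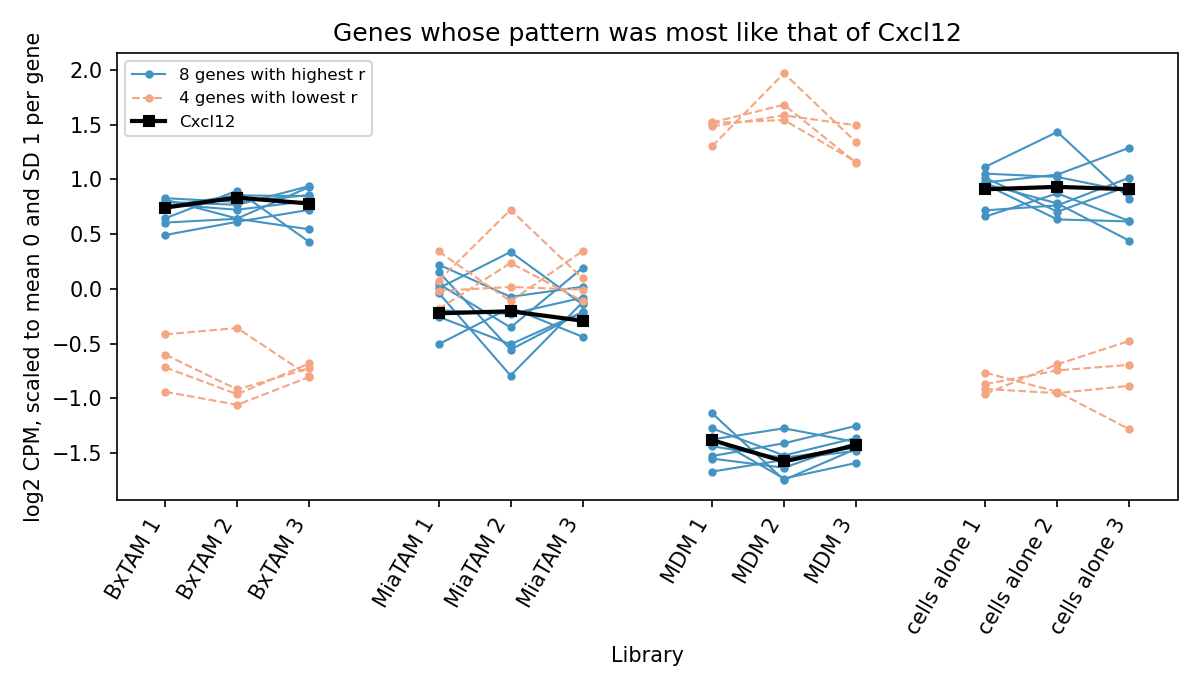
Log2 CPM scaled to mean 0 and SD 1 per gene (vertical axis) in the 12 libraries by group, for Cxcl12 (black) and 12 other genes. Among the 9143 genes compared, these are the 8 with the highest Pearson correlation with it (solid) and the 4 with the lowest (dashed). The 8 genes are lowest and the 4 highest in the MDM libraries.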

How the data were processed

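Messenger RNA was sequenced in 12 libraries of 4 groups. Groups were read from the sample titles and source names. The tools were HISAT2, StringTie 1.3.0 and CASAVA with build Rnor_6.0, per the submitters' processing notes. The counting tool, annotation release, strand setting and filters: not given in the sources used here. Per the file headers, the deposited values are raw counts by gene, and FPKM values that the authors scaled by gene length and library total. Counts were analysed in edgeR 4.0.16 (R 4.3.3), with filterByExpr by group (12360 genes), TMM scaling (factors 0.98 to 1.01) and 1 quasi-likelihood fit of all 12 libraries with 1 mean per group and no block. Calls needed an adjusted p (Benjamini-Hochberg, all tested genes) under 0.05. The standard error was the log2 change over the square root of F. CPM values use TMM-scaled totals, and FPKM was used to compare genes. The members and lists were chosen with earlier results of these data known. Named list genes were, per list and comparison, up to 4 called genes at 2-fold or more with the smallest p. Where there was none, the called gene with the smallest p was named. Always named were Mif, Cd74, Cd44, Dpp4, Mmp2, Mmp14, Arrb1, Arrb2, Grk2, Hif1a and Csf3. Relb, Sulf1, Ackr4, Cxcr3, Ccr7, Ccr1 and Cxcr5, and the per-gene choices among counts, were named after their values were seen. Of 163 listed symbols, 153 matched by symbol and 3 through RefSeq synonyms, and 7 had no single row. No 2 libraries of a group agreed within sampling noise. Alternatives were DESeq2 1.42.0, its size factors in edgeR, no filter, limma 3.58.1 on FPKM, 2-group fits, leaving out each library, and a replicate block. Overlapping and near-identical genes are uncertain. Promoters came from RefSeq (GRCr8), by symbol, for 3 of 3 genes.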

Additional observations from a re-analysis of the deposited data

How the results depend on the processing

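The log2 change of Cxcl12 kept its direction in all 6 comparisons under every alternative run and moved by less than the spread within groups; over all alternatives it ran from -0.10 to -0.07 in BxTAM against cells alone, from -0.77 to -0.74 in MiaTAM and from -1.59 to -1.53 in MDM, from 1.43 to 1.51 in BxTAM against MDM, from 0.77 to 0.83 in MiaTAM against MDM and from -0.69 to -0.65 in MiaTAM against BxTAM. The count of called axis genes stayed within 1.5 times in all 120 recomputations, and that of all genes in 117 of 120. The exceptions were in MiaTAM against BxTAM, where leaving out 1 library gave from 1933 to 3113 in place of 2997; fewer libraries entered those fits. For the named axis genes, 1673 of 1716 recomputed changes kept their direction and their side of the threshold, 42 no longer passed, 1 newly passed and 0 changed sign; lost calls are given beside the genes described. By Spearman correlation 0 of the 12 genes most and least like Cxcl12 were the same, so the choice of names depends on the measure. The 12 chosen by Pearson correlation had rank correlations from 0.776 to 0.958 (most alike) and from -0.937 to -0.811 (least alike). Why the choice changed was not tested. No pairing by replicate number was visible. Same-numbered libraries of 2 groups correlated by -0.127 to 0.0892 in their deviations, over 0.1 in 0 of 18 pairs. Libraries with unlike numbers correlated by -0.122 to 0.186. With 3 libraries per group this cannot show that the libraries were unpaired. With the replicate number as a block, 4275 genes were called in BxTAM against MDM. Cxcr4 and Ackr3 had too few counts for any fit, so no alternative gave them a value, and depth limits what can be said of them to the stated bounds.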
